A study of Mus musculus with 18 samples.

Results

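The 522 regions described here were bound by GATA6 late in a time course of GATA6 induction and carried no pluripotency factor. The authors classed their chromatin in mouse embryonic stem (ES) cells as promoter state. They are 522 of the 42403 GATA6 binding regions of the deposited table. The members were chosen by 3 deposited classes: the Late class of the GATA6 time course, the class with no peak of ESRRB, OCT4 or SOX2 (pluripotency factors, PTFs), and the promoter state of public histone mark data. Those classes came from clustering and from peak calls, and the table carries no cut-off that separates a member from its nearest neighbour. Regions of every SOX17 class were taken, and 211 of the members held a SOX17 peak while 311 did not.

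The study used KH2 ES cells (genotype C57BL/6 x 129/Sv) in which doxycycline (Dox) turns on a Gata6 transgene. Its 18 MNase-seq libraries form 6 groups of 3: untreated cells at d0, and cells given Dox for 8, 16, 24, 48 or 96 h. All groups carry the same transgene, so the control cells differ from the others in the drug as well as in GATA6. The columns used hold no value of an MNase library and no count, so no library entered a test, the depth behind each region is unknown here, and the labelled cell type could not be checked against expression. Nor was the time course of GATA6 signal used, so the Late class is taken as deposited.

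GATA6 is a zinc finger transcription factor that binds GATA sequences and starts the primitive endoderm (PrE) programme, the extraembryonic lineage that lines the yolk sac and lays down basement membrane. SOX17, an HMG-box factor of the same lineage, appears later and binds sequences of the ATTGT type. Active promoters carry H3K4me3 beside the transcript start, and in mammals many of them are CpG islands, which are accessible in most cell types and hold GC boxes, CCAAT boxes and ETS sites read by general promoter factors.

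Members were compared with 3 other sets of regions without PTFs: 12036 Late regions in any other histone state (other Late below), 845 Transient regions in the promoter state and 247 Early&Constant regions in the promoter state (Early below). Shares were compared by two-sided Fisher's exact tests, given as odds ratios on the log2 scale with 95% intervals, and the p-values of all 35 tests were adjusted together. Regions were the units, so intervals and p-values cover counting error among regions only. Neighbouring regions are not independent, and for many results the number of chromosomes with the same direction is therefore given too. A chromosome with equal shares in both sets did not count as the same direction.

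The sequences at the summits show how differently GATA6 regions of this kind can look. Each window below is the plus strand of mm10 from 100 bp before to 100 bp after the deposited GATA6 summit, with the best GATA6 and SOX17 motifs in capitals. Rpl26 (chr11:68902697-68902897) and Celsr3 (chr9:108832448-108832648) are shown because they hold the strongest GATA6 motif of all members and of those fully accessible at d0. Gm45843 (chr8:104570704-104570904) and Bicral (chr17:46813674-46813874) are regions with a SOX17 peak at which GATA6 binding increased after Oct4 knockdown, each with a GATA6 and a SOX17 motif. The window near Leo1 (chr9:75435897-75436097) holds the motif pair with the closest centres, which overlap and form 1 run of capitals. Xbp1 (chr11:5521994-5522194), Serpinh1 (chr7:99352068-99352268) and the region at the starts of Gm20635 and Kdelr2 (chr5:143403512-143403712) belong to secretory and basement membrane genes. In the window of Creb3l2 (chr6:37442207-37442407), which has neither motif, the capitals mark 1 GC box and 2 CCAAT boxes.
Rpl26: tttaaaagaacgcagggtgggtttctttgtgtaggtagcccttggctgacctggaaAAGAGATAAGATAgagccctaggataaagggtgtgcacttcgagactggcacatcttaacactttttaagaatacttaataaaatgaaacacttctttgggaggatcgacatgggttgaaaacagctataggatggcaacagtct
Celsr3: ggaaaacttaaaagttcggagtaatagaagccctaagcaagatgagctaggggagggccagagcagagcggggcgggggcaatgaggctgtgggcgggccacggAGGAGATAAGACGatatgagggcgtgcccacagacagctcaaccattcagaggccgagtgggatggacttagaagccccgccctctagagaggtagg
Gm45843: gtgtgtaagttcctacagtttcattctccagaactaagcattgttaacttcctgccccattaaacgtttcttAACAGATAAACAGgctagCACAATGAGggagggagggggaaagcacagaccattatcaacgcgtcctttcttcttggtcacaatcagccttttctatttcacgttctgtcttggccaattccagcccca
Bicral: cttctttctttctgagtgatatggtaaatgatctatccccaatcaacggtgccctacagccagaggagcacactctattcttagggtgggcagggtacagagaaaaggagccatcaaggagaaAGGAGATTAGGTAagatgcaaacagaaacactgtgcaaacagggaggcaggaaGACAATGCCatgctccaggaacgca
Leo1: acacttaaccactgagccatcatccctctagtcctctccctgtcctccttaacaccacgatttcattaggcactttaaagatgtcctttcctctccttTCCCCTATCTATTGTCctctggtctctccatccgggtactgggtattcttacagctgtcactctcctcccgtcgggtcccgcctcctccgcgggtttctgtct
Xbp1: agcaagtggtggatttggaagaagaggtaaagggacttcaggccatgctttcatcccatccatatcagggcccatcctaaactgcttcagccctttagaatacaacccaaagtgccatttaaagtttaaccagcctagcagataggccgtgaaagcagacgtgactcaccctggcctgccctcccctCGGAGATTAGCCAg
Serpinh1: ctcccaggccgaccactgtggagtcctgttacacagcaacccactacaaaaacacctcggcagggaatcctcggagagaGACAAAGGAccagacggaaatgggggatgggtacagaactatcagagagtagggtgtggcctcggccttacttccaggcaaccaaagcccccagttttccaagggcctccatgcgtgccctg
Gm20635 and Kdelr2: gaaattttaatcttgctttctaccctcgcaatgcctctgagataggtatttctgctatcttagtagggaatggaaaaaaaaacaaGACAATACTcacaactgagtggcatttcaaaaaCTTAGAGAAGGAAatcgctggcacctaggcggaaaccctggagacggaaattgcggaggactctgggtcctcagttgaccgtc
Creb3l2: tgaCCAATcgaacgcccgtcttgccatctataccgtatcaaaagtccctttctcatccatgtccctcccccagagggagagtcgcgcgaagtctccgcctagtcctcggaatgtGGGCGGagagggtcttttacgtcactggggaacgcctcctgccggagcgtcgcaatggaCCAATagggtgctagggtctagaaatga

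Members had fewer and weaker GATA6 motifs than any of the 3 other sets. A GATA6 motif, as deposited by the authors from a FIMO scan, was present in 61.1% of members, against 87.7% of other Late, 83.8% of Transient promoter and 92.7% of Early promoter regions. The log2 odds ratio was -2.18 (-2.44 to -1.91) against other Late regions, -1.72 (-2.08 to -1.35) against Transient and -3.02 (-3.75 to -2.28) against Early promoter regions. The adjusted p-values of Fisher's exact test were 3.01e-49, 6.87e-20 and 1.21e-21, and 20 of 20 chromosomes had this direction in each comparison.

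The motifs that were present were also weaker matches. The best GATA6 motif of a region scored 8.76 ± 1.96 in members (FIMO score, SD over 319 regions), with a difference of -1.2 from other Late regions (95% interval -1.42 to -0.98), of -1.33 (-1.61 to -1.05) from Transient and of -2.12 (-2.51 to -1.73) from Early promoter regions. In 39.9% of full-length best motifs of members the word AGATAA was present, against 54.3% in other Late, 57.9% in Transient and 64.0% in Early promoter regions. At least 2 GATA6 motifs were found in 25.9% of members and in 59.7%, 46.0% and 66% of the other sets. Near the summit the picture was alike: within the summit window, 44.8% of members had a GATA6 motif, against 77.2%, 67.2% and 79.4%.

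The strongest motifs among the members all hold AGATAA. They were ranked by the score of the same matrix, so likeness among them follows from the ranking. The 5 best-scoring GATA6 motifs, shown with 8 bp to each side on the strand of the motif, lay near Rpl26, a ribosomal protein gene, near Gm9025, near Rnf145, which encodes a ubiquitin ligase of the endoplasmic reticulum, near Nemp1, a gene of the nuclear envelope, and near Llgl1, a cell polarity gene.
Rpl26 (score 14.6, chr11:68902745-68902773): acctggaaAAGAGATAAGATAgagcccta
Gm9025 (score 14.5, chr13:111905508-111905536): ggccgtagAACAGATAAGAGGgcaggcag
Rnf145 (score 14.3, chr11:44520558-44520586): accacatcCACAGATAAGAGTccaccctc
Nemp1 (score 14.3, chr10:127677847-127677875): ttgcccagGAAAGATAAGAGGccatccgc
Llgl1 (score 14.3, chr11:60700558-60700586): cccaccagTACAGATAAGAGTtaggcttg

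None of these 5 regions had a SOX17 peak, and their summits lay from 9 bp (Rnf145) to 86 bp (Nemp1) from the motif. The Nemp1 region (chr10:127677774-127678047) is closed at d0 and is 1 of 15 closed members. The Gm9025 region (chr13:111905250-111905727) lies 21286 bp upstream of the nearest start and had an H3K27ac level of 15.4, against a median of 3.67 over members, while the other 4 lie within 1 kb of a start.

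**Figure D1:**
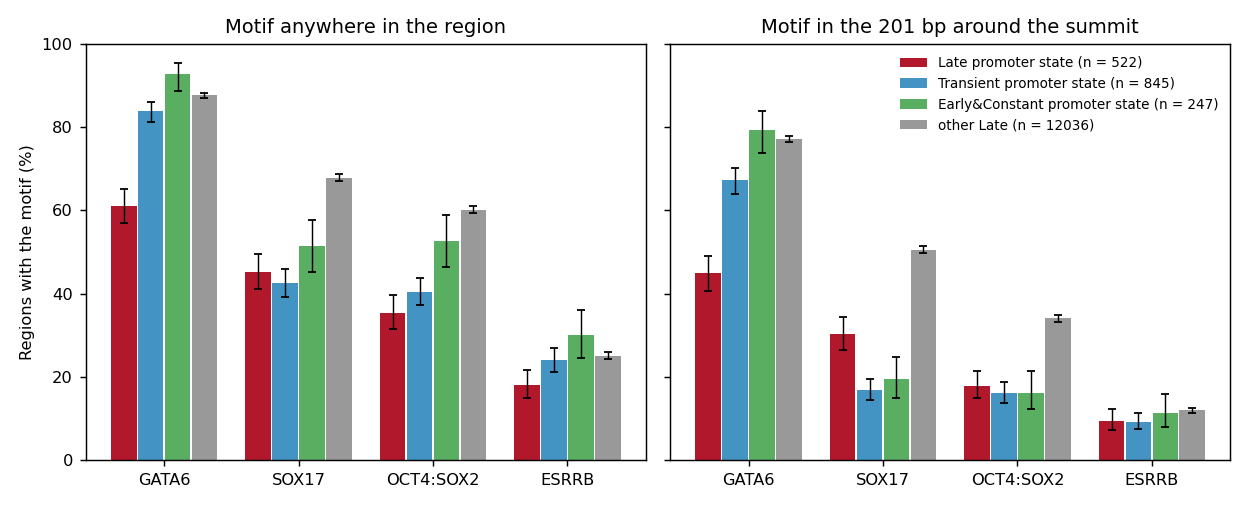
Share of regions (percent) with each of the 4 motifs in the members and in the 3 comparison sets, anywhere in the region (left) and in the summit window (right); bars are shares and error bars 95% Wilson intervals. Anywhere in the region, members have the lowest share with a GATA6 motif, 61.1%, against 83.8% to 92.7% in the others.

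The 5 strongest GATA6 motifs of members accessible at d0 scored from 14.1 down to 12.8. These members are part of the whole set, so their top scores could not exceed those above. After Celsr3, an atypical cadherin gene with a score of 14.1, came Gm44771 (13), Akap8l (13), Ptpn9, a tyrosine phosphatase gene (12.8), and Agbl5, a deglutamylase gene (12.8). Only the Agbl5 region (chr5:30887311-30887634) held a SOX17 peak, and its summit lay 1229 bp upstream of the start. In the Celsr3 region (chr9:108832368-108832768) the motif stood 10 bp from the summit.

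SOX17 motifs did not follow the same order. In the whole region, 45.2% of members had a SOX17 motif, against 67.9% of other Late regions (log2 odds ratio -1.36, -1.61 to -1.10, adjusted p = 1.39e-24 in Fisher's exact test, 20 of 20 chromosomes). Against Transient promoter regions (42.5%) the log2 odds ratio was 0.16 (-0.16 to 0.48, adjusted p = 0.372 in the exact test) and against Early promoter regions it was -0.36 (-0.80 to 0.08, adjusted p = 0.158 in the exact test). Member regions are narrower, at 445 bp on average against 552 bp for Transient and 733 bp for Early promoter regions. Within 10 bins of region width the log2 odds ratio became 0.67 against Transient (adjusted p = 0.000295 by the Mantel-Haenszel test) and 0.61 against Early regions (adjusted p = 0.0344), which turns the direction of the latter. In windows of equal length the SOX17 motif was present in 30.3% of members, 16.8% of Transient and 19.4% of Early promoter regions, and in 50.6% of other Late regions. The summit-window log2 odds ratio was 1.10 against Transient and 0.85 against Early promoter regions, with adjusted p-values of 2.61e-08 and 0.00304 in the exact test.

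Part of the SOX17 motifs of members held the word ATTGG, which is the reverse complement of the CCAAT box. The best SOX17 motif held ATTGG in 25.4% of the 236 members that had a motif (60 regions), against 5.85% of other Late, 18.4% of Transient and 20.5% of Early promoter regions. Examples, printed with the 9 bases of the motif in capitals and 8 bp of flank, are the regions of Sox17, of Mvk, which encodes mevalonate kinase of sterol synthesis, of Akap8l, a nuclear anchoring protein gene, and of Fam3c. Ndufs6b and C2cd3, printed after them, show the ATTGT type.
Sox17 (score 8.89, chr1:4493640-4493664): cccgcctcGCCATTGGCcgcgtcca
Mvk (score 7.98, chr5:114444085-114444109): cgctgtttCCTATTGGCctggggca
Akap8l (score 9.44, chr17:32350599-32350623): ctccttatCTCATTGGCttctgcaa
Fam3c (score 9.44, chr6:22356172-22356196): ttgccgggCTCATTGGCcgcgtcgg
Ndufs6b (score 12.8, chr7:81153199-81153223): ctctgggcCCCATTGTCctccctcc
C2cd3 (score 12.3, chr7:100372124-100372148): ttgaggacTTCATTGTCcagcatgc

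The ATTGT word itself was present in the summit window of 25.5% of members, against 54.7% of other Late, 16.9% of Transient and 17.8% of Early promoter regions. As a test chosen after the data were seen, ATTGT gave a log2 odds ratio of 0.75 against Transient (0.36 to 1.13, adjusted p = 0.000358 in the exact test) and 0.66 against Early promoter regions (0.11 to 1.21, adjusted p = 0.0329). When best motifs with ATTGG were counted as no motif in the whole region, the log2 odds ratio against Transient regions was -0.06 (adjusted p = 0.725 in the exact test), an alternative also chosen after the data were seen.

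Motifs of the PTFs were less frequent than in other Late regions. The OCT4:SOX2 motif was present in 35.4% of members against 60.1% (log2 odds ratio -1.46, -1.72 to -1.19, adjusted p = 8.60e-28 in the exact test), and the ESRRB motif in 18% against 25.1% (-0.61, -0.94 to -0.28, adjusted p = 0.000385). The ESRRB difference did not pass in the summit windows (-0.39, adjusted p = 0.117). Against Early promoter regions both were lower (OCT4:SOX2 -1.02, adjusted p = 1.83e-05, and ESRRB -0.96, adjusted p = 0.000497, exact tests). Of 20 chromosomes, 16 and 13 had this direction. Within width bins, however, the values were 0.01 and -0.15 and neither passed. Against Transient promoter regions the OCT4:SOX2 difference did not pass (-0.31, -0.63 to 0.02, adjusted p = 0.0942 in the exact test) and turned to 0.11 within width bins and 0.18 in summit windows, and the ESRRB difference (-0.52, adjusted p = 0.0179) was lost within width bins.

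Where a region had a motif, the motif was not always at the summit. A GATA6 motif was within 50 bp of the summit in 41.7% of the members that had one, against 52.5% of other Late, 44.8% of Transient and 52.0% of Early promoter regions. A SOX17 motif was within 50 bp in 36.0% of members with one, against 39.3%, 17.3% and 18.9%. Both motifs were present in 150 members, with a median of 123 bp between the centres of the best ones. The median was 101 bp in other Late, 161 bp in Transient and 181 bp in Early promoter regions. Mean region width was 445 bp in members and 454, 552 and 733 bp in those sets. Neither these distances nor the shares within 50 bp allow for width. The closest pair (5 bp between centres) was in a region 5527 bp upstream of Leo1, a gene of a transcription elongation complex. Next came Akap8l (6 bp) and Cspp1 (8 bp), and none of the 3 regions held a SOX17 peak.

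In 86 members (16.5%) none of the 4 motifs was found, against 1.98% of other Late, 7.81% of Transient and 4.86% of Early promoter regions. These 86 were narrower than the other members (mean width 333 bp against 467 bp) and richer in G and C (58.3% against 53.5% in the summit window), and 25.6% of them held a SOX17 peak. Regions with a SOX17 but no GATA6 motif made up 16.5% of members and 8.08%, 5.68% and 2.43% of the other sets, in the order above.

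Most members sat at transcript starts. The summit was within 1 kb of a GENCODE start in 83% of members, against 8.03% of other Late regions (log2 odds ratio 5.80, 5.46 to 6.14, adjusted p below 1e-300 in the exact test), and the promoter state was itself defined by histone marks typical of promoters. The share was 68.6% in Transient promoter regions (1.15, 0.76 to 1.54, adjusted p = 1.00e-08 in the exact test, 17 of 20 chromosomes) and 78.5% in Early promoter regions (0.41, -0.14 to 0.96, adjusted p = 0.197). The median distance was 184.5 bp in members, 404 bp in Transient and 297 bp in Early promoter regions. In 33.0% of members the summit was within 100 bp of a start, against 19.2% and 29.2%, and starts on both strands within 1 kb were found for 22.0%, against 12.7% and 19.4%. By annotation, 37.2% of member summits lay between genes, 33.9% in introns, 17.4% in UTRs, 10.2% in exons of noncoding transcripts and 1.34% in coding exons.

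**Figure D2:**
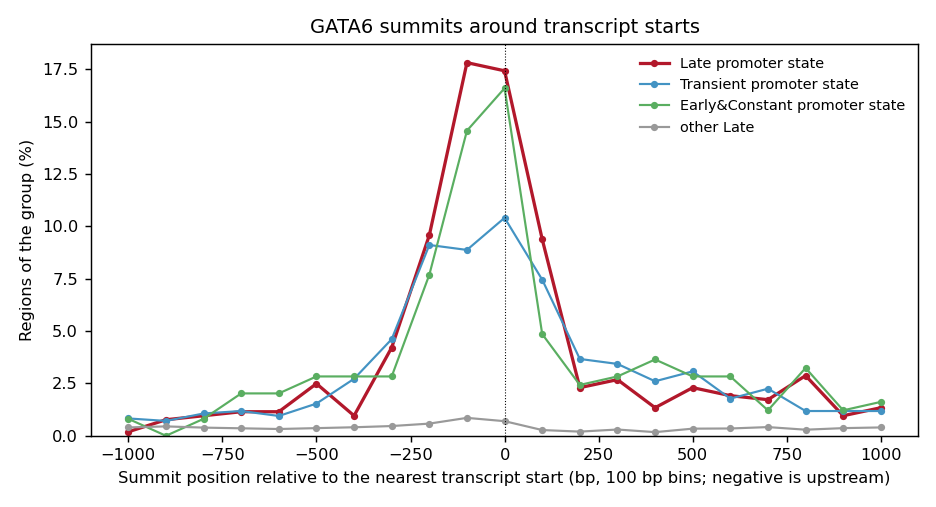
Position of the summit relative to the nearest transcript start (bp, in bins of 100 bp, negative upstream) against the share of each set's regions in the bin (percent), 1 line per set. The highest member bins are those centred 100 bp upstream (17.8%) and at the start (17.4%), with 33.0% of summits within 100 bp of one, against 1.39% of other Late regions.

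Members were richer in CpG than other Late regions. The summit window had a GC content of 54.3% ± 9.02 (SD, n = 522), against 43.9% in other Late, 56.3% in Transient and 54.9% in Early promoter regions. The ratio of observed to expected CpG was 0.639 in members and 0.207, 0.540 and 0.586 in the other sets. It passed 0.6, a common limit for CpG islands, in 56.9% of members against 2.52%, 40.5% and 47.4%. A GC box (GGGCGG, either strand) was present in 37.7% of member windows against 3.39%, 31.5% and 34.0%, a CCAAT box (CCAAT, either strand) in 30.1% against 21.4%, 20.2% and 21.1%, and an ETS word (CCGGAAG, either strand) in 9.96% against 0.65%, 6.75% and 7.29%. The word AGATAA was in 21.8% of member windows and in 51.2%, 42.0% and 53.9% of the others, against 54.3% of all regions. These shares are descriptions of letters and no sign that a factor was bound.

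**Figure D3:**
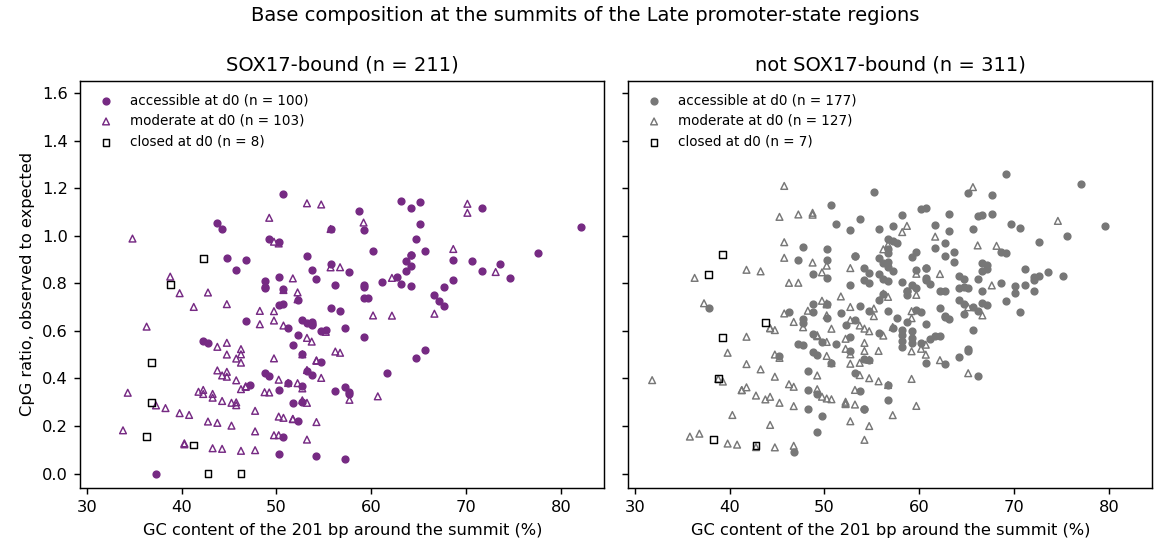
GC content (percent) against the ratio of observed to expected CpG in the summit window, 1 point per member, in panels by SOX17 peak and with symbols by accessibility at d0. The closed members lie at the low end of GC content, where the mean is 40.1% against 58.4% for the accessible ones.

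The histone levels, which chose the members, are given as a description. Median deposited ENCODE levels (scores with no unit stated, the authors' values) in members were 17 for H3K4me3 (2.92 to 75.6), 7.22 for H3K9ac, 3.67 for H3K27ac, 1.07 for H3K4me1, 0.627 for H3K27me3 and 0.652 for H3K9me3. DNase accessibility had a median of 8.85, against 5.26 in Transient and 5.95 in Early promoter regions. The highest H3K4me3 levels were 75.6 at Eno1, which encodes a glycolytic enzyme (chr4:150238042-150238267), 68.4 at Slc25a39, a mitochondrial carrier gene, and 68.1 at Fbxl18, an F-box gene.

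Members were open before Dox. In the accessibility class from untreated cells, 277 members (53.1%) were accessible, 230 (44.1%) moderate and 15 (2.87%) closed, so 97.1% were open in some degree against 12.6% of other Late regions (log2 odds ratio 7.88, 7.13 to 8.62, adjusted p below 1e-300 in the exact test, 20 of 20 chromosomes). This contrast largely follows from the choice of members by the promoter state, which other Late regions lack. Their median ENCODE DNase levels were 8.85 and 0.454. Fewer members than Transient (98.9%) or Early (99.6%) promoter regions were open (log2 odds ratios -1.46, -2.66 to -0.26, and -2.86, -5.79 to 0.07, adjusted p = 0.0293 and 0.0424, exact tests). Those sets had 9 and 1 closed regions, only 8 and 9 of 20 chromosomes had this direction, and neither difference passed within width bins. Counting the accessible class alone reversed the order, with 53.1% of members against 37.2% and 35.2% (log2 odds ratio 0.94, adjusted p = 2.73e-08, and 1.06, adjusted p = 1.19e-05, exact tests).

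GATA6 motifs were less frequent in the more accessible members. A GATA6 motif was present in 53.1% of accessible, 70.0% of moderate and 73.3% of closed members, and the best score averaged 8.29, 9.06 and 10.7. A SOX17 motif was present in 46.2%, 43.5% and 53.3%. The GC content of the window was 58.4%, 50.2% and 40.1%. A SOX17 peak was present in 36.1%, 44.8% and 53.3% of them. These groups were formed after the members were chosen, and no test was made of them.

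A SOX17 peak was called in 40.4% of members, against 44.5% of all regions in the table. The share was 49.3% in other Late regions (log2 odds ratio -0.52, -0.78 to -0.26, adjusted p = 0.000176 in Fisher's exact test, 18 of 20 chromosomes). It was 17.2% in Transient promoter regions (1.71, 1.35 to 2.07, adjusted p = 2.71e-20 in the exact test, 18 of 20 chromosomes) and 46.2% in Early promoter regions (-0.34, -0.78 to 0.10, adjusted p = 0.173). Members thus carried SOX17 more often than Transient promoter regions, less often than other Late regions, and without a detectable difference from Early ones, against which the value turned to 0.36 within width bins (adjusted p = 0.211). Among the 15 closed members the direction against other Late regions turned (0.27, adjusted p = 0.799).

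SOX17-bound and unbound members differed in sequence. A SOX17 motif was in 60.7% of the bound and 34.7% of the unbound (log2 odds ratio 1.54, 1.01 to 2.06, adjusted p = 1.67e-08 in the exact test, 20 of 20 chromosomes), and the best score averaged 9.58 against 8.89 (difference 0.69, 0.30 to 1.08). ATTGG stood in the best SOX17 motif of 18.8% of bound and 33.3% of unbound members that had one. With ATTGT in the window as the measure, the log2 odds ratio was 1.39. A GATA6 motif was more frequent in bound members (67.3% against 56.9%, 0.64, 0.11 to 1.17, adjusted p = 0.0293 in the exact test, 13 of 20 chromosomes). However, bound members are wider (mean 503 bp against 406 bp), the value within width bins was 0.26 and did not pass, and that within summit windows was 0.20. Bound members had a lower GC content (52.6% against 55.4%), a higher median H3K27ac (4.42 against 3.08) and a lower median DNase level (7.29 against 9.67), and their summits were within 100 bp of a start in 22.3% against 40.2%.

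GATA6 binding after Oct4 knockdown changed at few members. The class of the authors, from DESeq2 on knockdown and control cells after 48 h of Dox, was increased in 17 members (3.26%, against 8.57% of all regions), decreased in 2 (0.38%, against 6.25% of all regions) and unchanged in 503. The share with an increase was 19.9% in other Late regions (log2 odds ratio -2.89, -3.59 to -2.19, adjusted p = 8.60e-28 in the exact test, 20 of 20 chromosomes). It was only 2 of 845 in Transient promoter regions (3.83, 1.71 to 5.95, adjusted p = 1.28e-05 in the exact test, 13 of 20 chromosomes). In Early promoter regions it was 2.02% (0.70, -0.75 to 2.16, adjusted p = 0.502 in the exact test). Within width bins the last of these was 2.34 and passed (adjusted p = 0.00518). The increase was concentrated in SOX17-bound members, where 15 of 211 (7.11%) were increased against 2 of 311 (0.64%) of the unbound (3.56, 1.42 to 5.71, adjusted p = 0.000119 in Fisher's exact test, 13 of 20 chromosomes). Increased members were also wider than unchanged ones (mean 706 bp against 436 bp), and SOX17-bound members wider than unbound ones (503 bp against 406 bp).

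The increased regions lay farther from starts than members as a whole, with a median distance of 981 bp against 184.5 bp. Of the 17, 9 were within 1 kb of a start, against 433 of all 522. Nearest of the rest were Eif4h (1055 bp), Fam72a (1057 bp), Bicral (1589 bp) and Naca (1621 bp). Moderate accessibility was found in 14, against 230 of all 522. A SOX17 motif was in 14 (82.4%, against 45.2% of members), a GATA6 motif in 12 (70.6%, against 61.1%) and an OCT4:SOX2 motif in 12 (70.6%, against 35.4%). These shares do not allow for the greater width of the increased regions. Those with a SOX17 peak were near Fam72a, Naca (a nascent polypeptide chaperone), Sec14l1, Ubxn2a, Eef1akmt1, Nrm, Bicral, Cds2, Alad (a heme synthesis enzyme), Eif4h, Klhdc10, Ndufs6b, C2cd3, Gm45843 and Gm26849. Those without were near Slc25a39 and Trim71. Among the SOX17-bound ones, the region near Ndufs6b, 8374 bp downstream of its start, had the highest SOX17 motif score (12.8). At 2188 bp it is the widest of all members (chr7:81151497-81153684). In the Gm45843 region (chr8:104570512-104571195), 13817 bp upstream of the start, the centres of the 2 motifs, printed above, are 16 bp apart. The 2 decreased regions were near Tmed1, a cargo receptor gene of the secretory pathway, and Fam3c, and both have a SOX17 motif with ATTGG, with only the first holding a SOX17 peak.

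**Figure D4:**
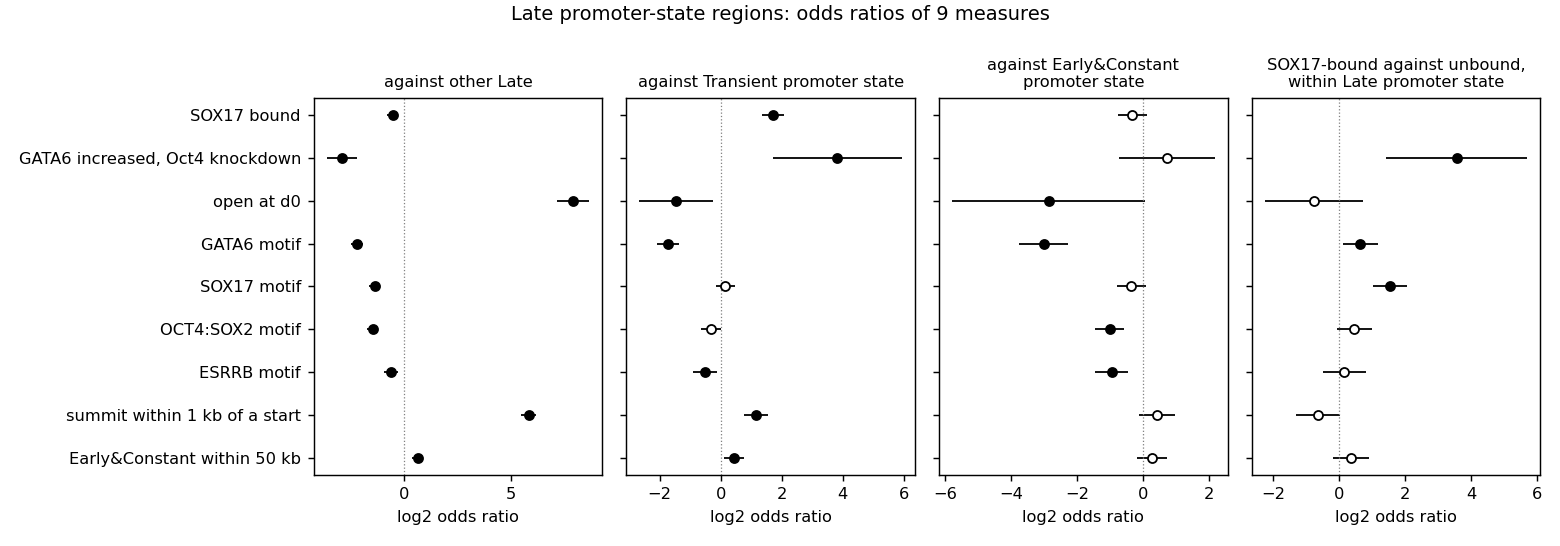
Log2 odds ratios with 95% intervals for each measure in members against the 3 comparison sets and in SOX17-bound against unbound members, with filled points where the adjusted p is under 0.05; the panels have different x scales. The largest value is 7.88, for openness at d0 against other Late regions, which lack the promoter state that chose the members.

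Members were nearer to Early GATA6 regions than other Late regions were. An Early&Constant region lay within 50 kb of 66.5% of members and of 55.9% of other Late regions (log2 odds ratio 0.64, 0.38 to 0.91, adjusted p = 4.86e-06 in the exact test, 15 of 20 chromosomes). The share was 59.2% of Transient promoter regions (0.45, 0.12 to 0.78, adjusted p = 0.0130 in the exact test, 13 of 20 chromosomes), and at 25 kb this did not pass (0.28, adjusted p = 0.126). Against Early promoter regions the value was 0.26 (-0.19 to 0.71, adjusted p = 0.330). Between SOX17-bound and unbound members the difference at 50 kb did not pass (69.7% against 64.3%, 0.35, adjusted p = 0.257 in the exact test), at 25 kb it did (0.81, adjusted p = 0.00417), and at 100 kb the value was -0.0039. An Early region was within 5 kb of 25.6% of bound and 13.5% of unbound members.

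Members lay at the starts of 570 genes, 470 of them protein coding, which is 2.14% of the 21924 protein-coding genes of the annotation. Over all protein-coding genes the share was 2.64% for Transient and 0.958% for Early promoter regions. The lists of genes below were chosen with earlier results of these data known, and the shares carry no test. Of 46 genes for entry, folding and transport in the endoplasmic reticulum, 6 had a member within 1 kb of a start (13.0%, against 4.35% for Transient and 2.17% for Early promoter regions): Atf6, Creb3l2 and Xbp1, which encode regulators of the response to unfolded protein, Kdelr2, a receptor that returns resident proteins, and Sec23a and Sec31a, coat proteins of vesicles that leave the compartment. Of 19 basement membrane genes 3 did (15.8%): Lamb1 and Lamb2, which encode laminin beta chains, and Serpinh1, which encodes a collagen chaperone. The count was 0 for Transient and Early, but a list of 19 genes is too short for that to set members apart. Of 83 cytosolic ribosomal protein genes 10 did (12%, against 2.41% for Transient and 3.61% for Early). The Early share of this list is thus also above the Early share of all protein-coding genes. The lysosome list had 1 of 28 (Gaa), sterol synthesis 1 of 22 (Mvk), actin and junctions 2 of 31 (Ctnnd1 and Itga3) and mitochondrial ribosomal proteins 2 of 75. Of the primitive endoderm transcription factors only Sox17 was found (1 of 11), and no gene of the primitive endoderm surface, visceral endoderm or pluripotency lists was.

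**Figure D5:**
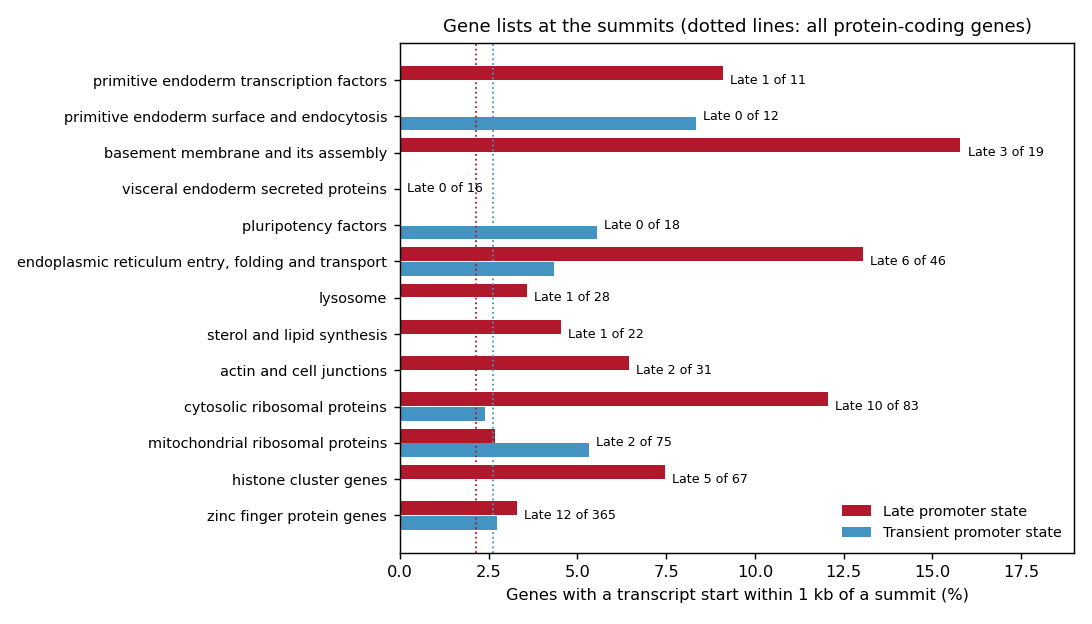
Share of genes (percent) of each list with a start within 1 kb of a summit, for members and for Transient promoter regions, with dotted lines at the shares of all protein-coding genes, 2.14% and 2.64%. Basement membrane, endoplasmic reticulum and cytosolic ribosomal protein genes have shares of 12% to 15.8%.

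Sox17 itself carries a member at its start. That region (chr1:4493473-4493867) has its summit 24 bp upstream of the start, is accessible at d0 and holds a SOX17 peak, a GATA6 motif of score 6.78 and a SOX17 motif of score 8.89 of the ATTGG type. The GC content of its window is 67.2% and an Early region lies 3.29 kb away. Its H3K27ac level is 0.85, below the member median of 3.67, and its H3K27me3 level is 3, above the member median of 0.627. The GATA6 motif of this region lacks the word GATA, as do those at Lamb1, Xbp1, Mvk, Itga3 and Kdelr2. Those at Lamb2 and Sec31a hold it. The Sox17 site is shown on the strand of the motif.
Sox17 (GATA6 motif, chr1:4493619-4493647): cgcgtccaTAAAGAAAAGGGCcccgcggc

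The best GATA6 scores at the other list genes ran from 6.37 to 8.90, beside a median of 8.26 over members with a motif. At Lamb1 (chr12:31264955-31265641, with SOX17) the best GATA6 motif scored 8.30 and stood 444 bp from the summit, and at Lamb2 (chr9:108479660-108480097, without SOX17) it scored 8.90. Xbp1 (chr11:5521521-5522347, with SOX17) scored 7.69, the region of Kdelr2 and Gm20635 (chr5:143403503-143403996) scored 6.65, and Sec31a (chr5:100416281-100417030, with SOX17) scored 8.46. Atf6 (chr1:170867000-170867229) and Creb3l2 (chr6:37442046-37442590) had neither a GATA6 nor a SOX17 motif. Of the other list genes, Itga3, an integrin subunit gene, scored 6.91, Mvk 6.37 and Ctnnd1, a catenin gene, 7.94. Of a full motif of 13 bp, the deposited Ctnnd1 site holds only AAG, at the edge of the region. Gaa, which encodes a lysosomal glucosidase, Sec23a and Serpinh1 had no GATA6 motif. Early regions lay 0.688 kb from Atf6, 1.69 kb from Itga3, 1.86 kb from Serpinh1 and 3 kb from Lamb1, and at the other list genes the distance ran from 3.29 kb at Sox17 to 217 kb at Kdelr2 and Gm20635.

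A set of 89 members lay beyond 1 kb of any start, 21 of them beyond 10 kb. They had a median H3K4me3 of 10.8 against 19.8 in the others, H3K4me1 of 1.86 against 0.995 and a mean CpG ratio of 0.437 against 0.680. A SOX17 peak was present in 49.4% against 38.6%, and binding was increased after Oct4 knockdown in 8 of 89 against 9 of 433. No test was made of these, since the distance was looked at after the members were chosen.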

How the data were processed

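The deposited table has 42403 regions and 105 columns, of which 41 were used. Positions are in base pairs of mm10, counted from 1. The authors aligned reads with bowtie2, called peaks with MACS2, clustered GATA6 signal by k-means and classed responses to Oct4 knockdown with DESeq2. The deposited motif score and the deposited ENCODE score are the authors' values, the latter normalised by library size and region width. Not used were 52 signal columns, which match no library, and 12 columns of motif groups.

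Motifs in windows of 100 bp to each side of the summit were scanned with matrices recovered from the deposited motifs, and starts came from GENCODE M21. Two-sided Fisher's exact tests with Woolf intervals (0.5 added where a cell was 0) were adjusted over 35 tests by the Benjamini-Hochberg procedure, and Mantel-Haenszel estimates were used within 10 bins. Scripts were tested on simulated data. The members, gene lists and tests were chosen with earlier results of these data known. Named regions are those with the highest GATA6 motif scores (5 of all members, 5 of accessible members), the 5 strongest SOX17 motifs among SOX17-bound increased regions, regions within 1 kb of listed genes, the 3 widest, the 3 closest motif pairs, the decreased ones and the 3 with the highest H3K4me3. Python 3.11.15, scipy 1.17.1, pandas 2.3.3 and pysam 0.24.0 were used.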

Additional observations from a re-analysis of the deposited data

How the results depend on the processing

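No paired analysis was possible because no library entered a test. Of the alternatives, 113 kept direction and side of the threshold, 29 turned direction, 28 lost a call and 7 gained one. Values are log2 odds ratios, and the cause was not tested. Only 15 members were closed at d0, so tests among closed regions had little precision, and region width limits whole-region motif shares.

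Among closed regions, against other Late regions SOX17 binding was 0.27, OCT4:SOX2 0.33, increased binding -1.88, GATA6 motif -1.59, SOX17 motif -0.96, ESRRB -1.12 and an Early region 0.76. Against Transient, OCT4:SOX2 was 1.32, increased binding 0.97, GATA6 -2.89, ESRRB -1.70, a start within 1 kb 2.38 and an Early region 0.00. Against Early, SOX17 binding and SOX17 motif were 1.77, increased binding -1.69, an Early region and OCT4:SOX2 -0.65, GATA6 -0.23 and ESRRB -0.85. For SOX17-bound against unbound members, OCT4:SOX2 and an Early region were -0.58, ESRRB -0.22, a start 0.22, increased binding 1.58 and GATA6 0.26.

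Within width bins, against Transient, OCT4:SOX2 was 0.11, SOX17 motif 0.67, openness -1.22 and ESRRB -0.15. Against Early, SOX17 binding was 0.36, SOX17 motif 0.61, OCT4:SOX2 0.012, increased binding 2.34, openness -1.82 and ESRRB -0.15. For the SOX17 split, ESRRB was -0.12 and GATA6 0.26. Near starts, ESRRB against Transient was -0.48 and GATA6 in the split 0.56.

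In summit windows, OCT4:SOX2 was 0.18 against Transient and 0.17 against Early, ESRRB 0.027 against Transient, -0.39 against other Late and -0.30 against Early, SOX17 motif 1.10 against Transient and 0.85 against Early, and GATA6 0.20 in the split. In alternatives chosen after seeing the data, summit windows in GC bins gave ESRRB 0.0055 against Transient, -0.42 against other Late and -0.23 against Early, SOX17 motif 1.00 against Transient and 0.86 against Early, OCT4:SOX2 0.047 against Early and GATA6 -0.10 in the split. ATTGT in windows gave 0.75 against Transient and 0.66 against Early, and best motifs without ATTGG -0.061 against Transient.

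The accessible class alone gave 0.94 against Transient and 1.06 against Early. An Early region within 25 kb gave 0.28 against Transient and 0.81 in the split, and within 100 kb -0.0039 in the split. A start within 500 bp gave 0.50 against Early.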

Other observations

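Members were found on 20 chromosomes, with 61 (11.7%) on chromosome 11, which held 6.42% of all regions. In 32 members the summit of another member lay within 10 kb. Histone cluster genes had 5 of 67 starts within 1 kb of a member summit, from 3 regions, zinc finger protein genes 12 of 365 and olfactory receptor genes 0 of 1092.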
